A study of Mus musculus with 6 samples.

Results

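The vessels of bone were described through 10 genes of endothelial cells, the cells that line blood vessels. The genes were taken from a fixed list of symbols and not by their measured values: Pecam1, Cdh5, Kdr, Flt1, Tek, Tie1, Emcn, Plvap, Stab2 and Eng. All 10 were found among the 54532 genes of the deposited table, and all 10 passed the filter on low values that left 13619 genes. Bone RNA came from female C57BL/6J mice aged 16 weeks. There were 3 libraries labelled WT (wild type) and 3 labelled MIR29cb2-/-, mice that lack the cluster encoding miR-29b-2 with miR-29c. The labels name no bone, no removal of marrow or muscle and no pooling of animals, and they do not tie each library to its own mouse, so each p-value reflects only how these libraries vary, and that variation can be technical.

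Endothelial cells hold to one another through junction proteins such as VE-cadherin (Cdh5) and PECAM-1 (Pecam1), and they take growth and survival signals from VEGF through the receptors Kdr and Flt1 and from angiopoietins through Tek, with Tie1 as its partner receptor. In bone, arterioles and the endomucin-rich capillaries near growing bone lead into the wide, fenestrated sinusoids of the marrow. Sinusoidal cells carry the scavenger receptors stabilin-1 and stabilin-2 (Stab1, Stab2), which take up hyaluronan and other waste molecules from the blood. Stab2 is therefore read here as the sinusoidal gene, and the other 9 as general endothelial genes, although Plvap and Emcn are also made by sinusoids and Pecam1, Tek and Eng also by some blood cells.

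The mature microRNAs of the deleted cluster are shown with their sister from the other locus, because all carry 1 seed and so address the same sites. Sequences are from RefSeq (GRCm38.p6), 5′ to 3′, with the seed (bases 2 to 8) in capitals.
mmu-miR-29b-3p: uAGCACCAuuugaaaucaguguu
mmu-miR-29c-3p: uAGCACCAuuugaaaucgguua
mmu-miR-29a-3p: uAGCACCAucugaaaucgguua
The miR-29b sequence is also encoded at the intact locus on chromosome 6 (31063025 to 31063047), beside its copy in the deleted cluster on chromosome 1 (195037091 to 195037113).

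A match to this seed, TGGTGCT on the sense strand, was searched in the annotated 3′ UTRs (GENCODE M21) of the 10 genes. Only Stab2 held it, once, at mm10 chr10:86841355-86841361 on the minus strand. The site is printed with 10 bases on either side, the match in capitals.
Stab2 site: accttccagaTGGTGCTtggcctgttc
Of the tested genes with an annotated 3′ UTR, 18.8% held the match (2198 of 11685), against 1 of 10 here. A match is a description of the sequence and does not show that the transcript is bound.

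Depth and library quality touch every value below. Each library held 16727111 to 20118034 recovered reads, of which the 10 genes had 160 to 2259 reads each in any 1 library. The libraries of wild-type replicate 2 and of knockout replicate 1 differed from the rest: their FPKM totals (FPKM is a read level per exon length and library size) were 489576 and 487102, against 355787 to 404994 in the others, and long genes read low in them relative to their group, with Spearman's rho between exon length and deviation of -0.42 and -0.45 over 13613 genes. Deviations were taken from the group mean, and rho in the others was 0.18 to 0.41, highest in wild-type replicate 1 (0.41) and knockout replicate 3 (0.40). For several of the 10 genes, the change without 1 of these libraries is also given. Mir29b-2 and Mir29c were listed at 0 in all 6 libraries, and such short RNAs are not held by this library type, so the deletion could not be checked by loss of its product. A330023F24Rik, the long transcript of the locus, averaged 0.162 ± 0.0315 FPKM in the wild types and 3.28 ± 0.788 FPKM in the knockouts (SD, n = 3). Bone markers were present, with Col1a1 at 469 ± 87.2 and Bglap at 682 ± 296 FPKM in wild type.

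The question was whether endothelial transcripts differ between the genotypes, and whether the sinusoidal gene does so with the general ones. The 9 general genes were lower in knockout bone: for each of them, all 3 knockout libraries lay below all 3 wild-type libraries. Stab2 was the exception, with overlapping groups and nearly equal means. Over all genes tested, 13.7% lay lower in this non-overlapping way and 14.7% higher, and none of the 10 genes lay higher. With FPKM totals made equal, 7 of the 10 lay lower without overlap. By limma with Benjamini-Hochberg adjustment over all genes, Cdh5 and Kdr fell. That is 2 of 10 members, where 3.82% of all genes were called lower and 1.34% higher. At an unadjusted p under 0.05, 7 of the 10 were lower, against 11.7% of all genes. Their median log2 change was -0.45, beside 0.06 over all genes. In bulk RNA, fewer endothelial cells and less of these RNAs per cell cannot be told apart.

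**Figure D1:**
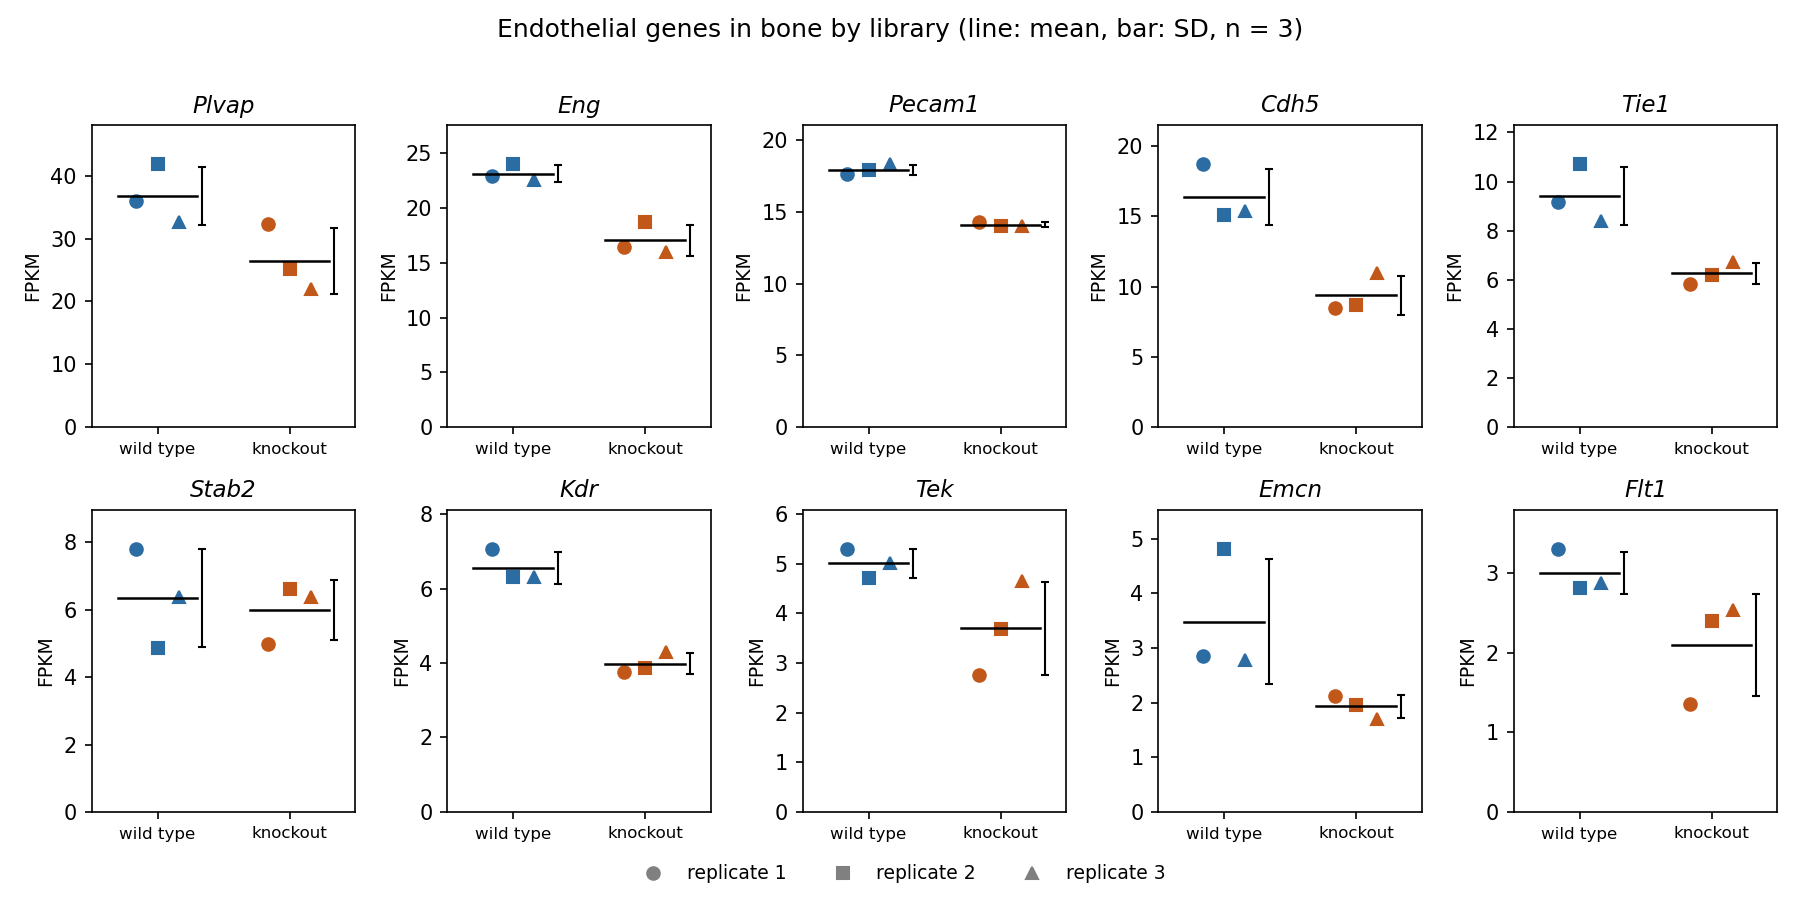
FPKM of the 10 endothelial genes in each library, ordered by mean level, with wild type in blue and knockout in orange, the replicate by symbol shape, the mean as a line and the SD as a bar (n = 3). In 9 panels every knockout point lies below every wild-type point, and in the Stab2 panel the groups overlap.

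The junction genes came first. Cdh5 (ENSMUSG00000031871) encodes VE-cadherin, the adhesive core of endothelial junctions, and lies at mm10 chromosome 8 from 104101625 to 104144511. It measured 18.7, 15.1 and 15.4 FPKM in wild-type replicates 1 to 3 and 8.47, 8.72 and 11 in the knockouts. The highest knockout value was 27.2% below the lowest wild-type value. Means were 16.4 ± 1.99 and 9.39 ± 1.40 FPKM (SD, n = 3), 42.7% lower in the knockout, with a change of -0.75 on the log2(FPKM + 1) scale (SE 0.143, limma adjusted p = 0.0357). This call was lost when any 1 library other than knockout replicate 3 was left out, with limma adjusted p of 0.0618 to 0.147 and changes of -0.80 to -0.65.

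Pecam1 (ENSMUSG00000020717, chromosome 11 from 106654217 to 106750628) encodes an adhesion molecule of endothelium, platelets and leukocytes. Its libraries agreed most closely of the 10: 17.6, 17.9 and 18.3 FPKM in wild type against 14.3, 14.0 and 14.0 in knockout. Means of 17.9 ± 0.362 and 14.1 ± 0.176 (SD, n = 3) differed by 21.3%, the smallest decrease among the general genes, and the log2 change of -0.32 did not pass (limma adjusted p = 0.109). The ratio of Cdh5 to Pecam1 within a library was 1.06, 0.845 and 0.840 in wild type and 0.591, 0.623 and 0.783 in knockout bone, so the junction genes did not differ in step. Markers of leukocytes, a second source of Pecam1, leaned the other way: 8 genes such as Ptprc summed to 1050 to 1410 FPKM in wild type and 1510 to 1870 in knockout, with a median log2 change of 0.37. By limma 0 of these 8 passed the threshold, and 3 were higher at an unadjusted p under 0.05. Without overlap 5 lay higher, where 14.7% of all genes did, and Laptm5 was at -0.03. The part of leukocytes in the Pecam1 value was not tested.

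Among the VEGF receptors, Kdr (ENSMUSG00000062960, chromosome 5 from 75932827 to 75978458), which carries most VEGF-A signal in endothelium, fell. Its values were 7.06, 6.30 and 6.31 FPKM in wild type and 3.77, 3.88 and 4.31 in knockout. The groups stood apart by 31.7% of the lowest wild-type value, the widest gap of the 10. Means were 6.56 ± 0.435 and 3.99 ± 0.282 (SD, n = 3), 39.2% lower, with a log2 change of -0.60 (SE 0.107, limma adjusted p = 0.0313). The call was lost on leaving out any 1 library (limma adjusted p of 0.0573 to 0.136), while the change stayed between -0.65 and -0.55.

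Flt1 (ENSMUSG00000029648, chromosome 5 from 147561604 to 147726011), a VEGF receptor that also acts as a trap for the ligand, measured 3.30, 2.81 and 2.88 FPKM in wild type. In knockout it measured 1.36, 2.40 and 2.53. Knockout replicate 1 was far below the other knockouts. The log2 change of -0.39 did not pass (limma adjusted p = 0.285) and was -0.20 without that library. Flt1 has the most exonic bases of the 10 (13504), and with the trend on length removed its change was -0.44 (limma adjusted p = 0.0817). The ratio of Kdr to Flt1 was 2.14, 2.25 and 2.19 in wild type and 2.77, 1.61 and 1.70 in knockout. Means were 2.19 ± 0.0520 and 2.03 ± 0.643 (SD, n = 3), with overlapping groups. Only knockout replicate 1 lay above the wild types, and the other knockouts lay below all of them.

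The angiopoietin receptors followed. Tie1 (ENSMUSG00000033191, chromosome 4 from 118471191 to 118490061) measured 9.18, 10.7 and 8.38 FPKM in wild type and 5.85, 6.20 and 6.73 in knockout. Means of 9.42 ± 1.18 and 6.26 ± 0.444 (SD, n = 3) were 33.5% apart, with a log2 change of -0.52 that narrowly missed the threshold (limma adjusted p = 0.0619). Without wild-type replicate 2 the change was -0.43 (limma adjusted p = 0.107). Tek (ENSMUSG00000006386, chromosome 4 from 94739289 to 94874976), the receptor that binds the angiopoietins, measured 5.29, 4.71 and 5.02 FPKM in wild type and 2.75, 3.69 and 4.64 in knockout. The highest knockout value of Tek lay 1.56% below the lowest wild-type value, so its groups barely separated. Its log2 change of -0.37 (limma adjusted p = 0.256) was -0.22 without knockout replicate 1.

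Eng (ENSMUSG00000026814, chromosome 2 from 32646595 to 32682669) encodes endoglin, a co-receptor for BMP9 and TGF-beta on endothelium. It measured 22.9, 24 and 22.6 FPKM in wild type and 16.5, 18.7 and 16.0 in knockout, 23.2 ± 0.722 against 17.1 ± 1.44 (SD, n = 3). The groups were 17.3% apart at their closest and the log2 change was -0.42 (limma adjusted p = 0.0795).

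Plvap and Emcn mark the surface of permeable vessels. Plvap (ENSMUSG00000034845, chromosome 8 from 71497765 to 71511752), which forms the diaphragms of fenestrae, was the most abundant of the 10. It measured 36, 41.8 and 32.6 FPKM in wild type and 32.3, 25.1 and 22.0 in knockout. Knockout replicate 1 lay only 0.917% below wild-type replicate 3, and the log2 change of -0.47 did not pass (limma adjusted p = 0.181). The change was -0.38 without wild-type replicate 2 and -0.62 without knockout replicate 1 (limma adjusted p of 0.309 and 0.112). Emcn (ENSMUSG00000054690, chromosome 3 from 137341067 to 137432185), the sialomucin endomucin, measured 2.85, 4.81 and 2.79 FPKM in wild type and 2.12, 1.96 and 1.71 in knockout. Its mean was 44.6% lower, the largest decrease in percent, but wild-type replicate 2 was far above the other wild types. The log2 change of -0.59 (limma adjusted p = 0.134) became -0.38 without that library.

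Stab2 (ENSMUSG00000035459, chromosome 10 from 86841198 to 87008025), the sinusoidal scavenger receptor, measured 7.80, 4.88 and 6.37 FPKM in wild type and 4.98, 6.61 and 6.39 in knockout. The lowest value of each group belonged to a library that stood apart, and the other knockout values fell inside the wild-type range. Means were 6.35 ± 1.46 and 5.99 ± 0.885 (SD, n = 3), a log2 change of -0.06 with a 95% confidence interval of -0.48 to 0.36 (limma adjusted p = 0.892). That interval holds changes as large as the median of the general genes, -0.47, and ends short of the -0.75 of Cdh5. The sign was not stable: the change was 0.08 without wild-type replicate 1, 0.05 without knockout replicate 1 and -0.21 without wild-type replicate 2.

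**Figure D2:**
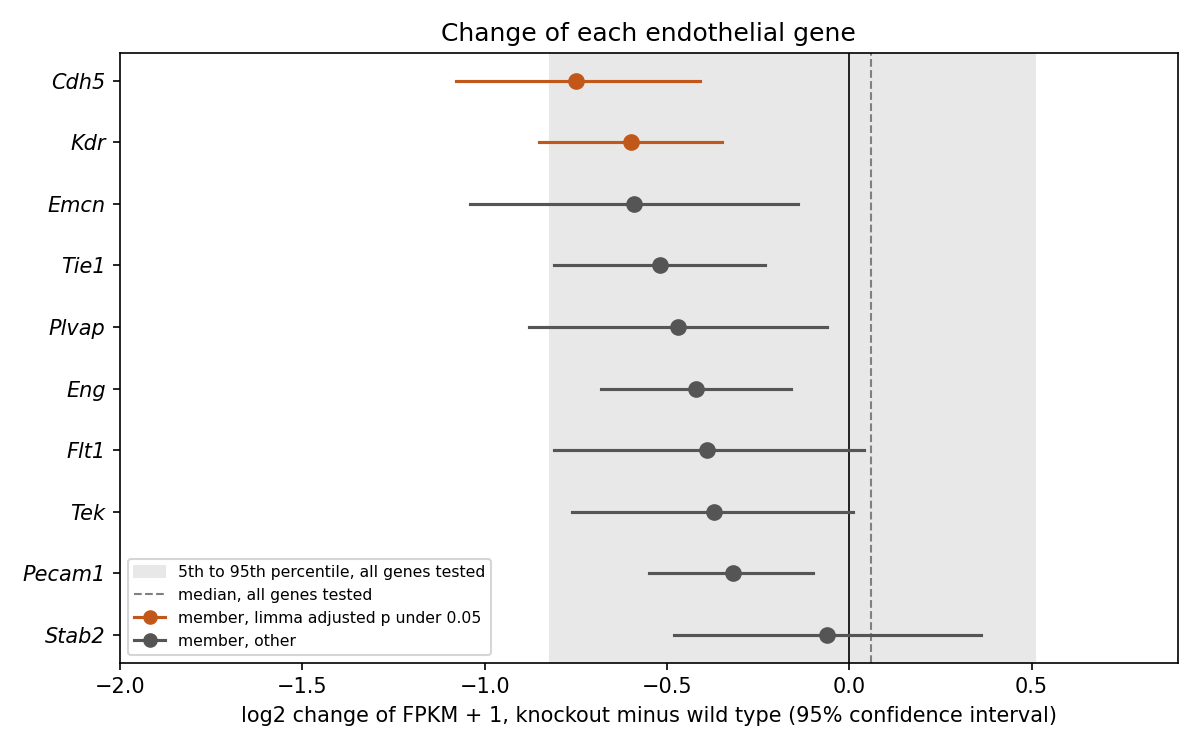
Change of each endothelial gene on the log2(FPKM + 1) scale, knockout minus wild type, as a point with its 95% confidence interval from limma, with the 5th to 95th percentile of all genes tested (-0.82 to 0.51) in grey and their median as a dashed line. Cdh5 and Kdr, in orange, passed the threshold, and Stab2 lies nearest to 0.

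Set against the general genes within each library, Stab2 was relatively higher in knockout bone. On the log2(FPKM + 1) scale, Stab2 minus the mean of the other 9 was -0.35, -0.97 and -0.51 in wild-type replicates 1 to 3 and -0.33, -0.06 and -0.14 in the knockouts. Group means were -0.61 ± 0.32 and -0.18 ± 0.14 (SD, n = 3), a difference of 0.43, with knockout replicate 1 only just above wild-type replicate 1. The mean of the general genes itself was 3.47 ± 0.07 in wild type and 2.97 ± 0.06 in knockout. As this score is built over chosen genes, it was not tested, and it was 0.25 without wild-type replicate 2, the lowest library.

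Ratios of single genes restate these values gene by gene. All 9 mean ratios of Stab2 to a general gene were higher in knockout, and in 4 (Cdh5, Kdr, Flt1 and Tie1) the groups did not overlap. The 9 ratios share 1 numerator with nearly equal group means, and every denominator was lower in all knockout libraries. They are therefore no separate result. Stab2 to Cdh5 was 0.417, 0.323 and 0.414 in wild type and 0.588, 0.758 and 0.581 in knockout. Stab2 to Kdr was 1.10, 0.774 and 1.01 against 1.32, 1.70 and 1.48. Stab2 to Pecam1 overlapped, with 0.354 ± 0.0851 and 0.425 ± 0.0675 (SD, n = 3). With Stab1, the other stabilin, named after its values were seen, the ratio was 1.26, 1.05 and 1.33 in wild type and 1.25, 1.04 and 1.27 in knockout, so the stabilins kept nearly the same proportion in both groups. Bulk RNA does not tell which cells made either stabilin.

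**Figure D3:**
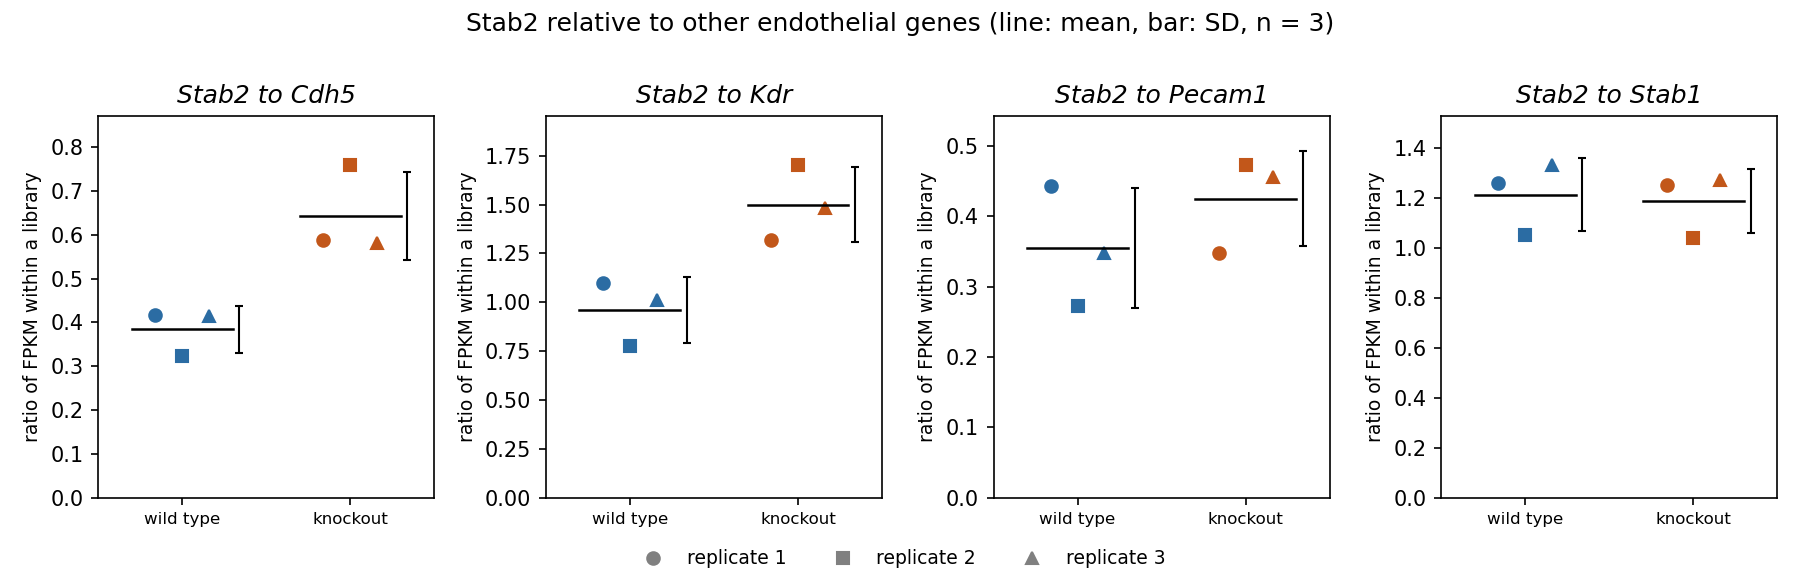
Ratio of the FPKM of Stab2 to that of Cdh5, Kdr, Pecam1 and Stab1 within each library, with the mean as a line and the SD as a bar (n = 3). The ratios to Cdh5 and Kdr are higher in every knockout library, the ratio to Pecam1 overlaps, and the ratio to Stab1 lies between 1.04 and 1.33 in all 6.

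Levels per length can be ordered. Means over the 6 libraries ran from Plvap (31.6 FPKM) through Eng (20.1), Pecam1 (16.0), Cdh5 (12.9), Tie1 (7.84), Stab2 (6.17), Kdr (5.27), Tek (4.35) and Emcn (2.71) to Flt1 (2.55). Plvap over Eng, Eng over Pecam1 and Cdh5 over Tie1 held in 6 of 6 libraries with no overlap in either genotype. Emcn and Flt1 could not be ranked, since Emcn was the higher in only 2 libraries. In wild type the ranges of Stab2 and Kdr overlapped, and in knockout every Stab2 value lay above every Kdr value.

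Vessel subtypes were then compared through gene lists that hold none of the 10. Among 23 tested pan-endothelial genes, 2 fell and 0 rose (median log2 change -0.43), and 14 lay lower without overlap, 60.9% against 13.7% of all genes. The calls, 2 of 23, stand beside 3.82% of all genes called lower. The count of calls was 0 to 1 when 1 library was left out. Sox18, an endothelial transcription factor, averaged 20 ± 3.82 FPKM in wild type and 9.29 ± 1.92 in knockout (SD, n = 3), a fall by 1.03 on the log2 scale (limma adjusted p = 0.0336), and the surface mucin Podxl from 5.68 ± 0.595 to 2.19 ± 0.838 (log2 change -1.10). S1pr1, the receptor of sphingosine-1-phosphate, had a log2 change of -0.51 (limma adjusted p = 0.056). These are the genes of the list with the smallest p, and the list was not uniform: the endothelial factor Erg, chosen after its values were seen, was at 10.1 ± 0.541 and 9.53 ± 0.602 FPKM. Other cells may also make genes of this list, and their part was not tested.

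Of 16 tested genes of arteries and type H vessels, the CD31-high, endomucin-high capillaries next to growing bone, 4 fell and 13 lay lower without overlap (median -0.57). They included the netrin receptor Unc5b (5.64 ± 1.26 to 2.05 ± 0.406 FPKM, SD, n = 3, log2 change -1.12), the tip-cell proteoglycan Esm1 (31.6 ± 2.99 to 18.8 ± 2.05, log2 change -0.72) and Alpl (log2 change -1.67), which is also an osteoblast gene. The fourth was the Notch target Hey1 (-0.90). The count was 0 to 3 when single libraries were left out. Beside this list and the next, 3.82% of all genes were called lower and 13.7% lay lower without overlap. Of 14 genes of muscle and fat capillaries, 7 fell (median -1, with 2 to 6 calls without single libraries), among them the caveolins Cav1 (25 ± 2.02 to 7.21 ± 1.93 FPKM, log2 change -1.69) and Cav2 (-1.31) and the glycerol channel Aqp7 (-1). The caveolins, Aqp7 and others of this list are also made by fat or muscle cells.

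Of 15 tested genes of the sinusoidal list 0 fell and 1 rose by limma, 2 were lower and 1 higher at an unadjusted p under 0.05, and the median log2 change was 0. Over all genes, 3.82% were called lower, 1.34% were called higher and 11.7% were lower at an unadjusted p under 0.05. Only 1 gene, Lyve1, lay lower without overlap (6.67% of the list, against 13.7% of all genes). The inhibitory Fc receptor Fcgr2b rose: it averaged 13.8 ± 0.608 FPKM in wild type and 20.7 ± 1.13 in knockout (SD, n = 3), a log2 change of 0.56 (limma adjusted p = 0.0343). It is also a gene of B cells and myeloid cells, and the list had 0 calls, Fcgr2b included, when any 1 library was left out. Lyve1, a hyaluronan receptor shared with lymphatic vessels and macrophages, had a log2 change of -0.56 (limma adjusted p = 0.105) and the DNase Dnase1l3 one of -0.37. Stab1 measured 6.18, 4.67 and 4.78 FPKM in wild type and 3.97, 6.34 and 5.05 in knockout, a log2 change of -0.03. The VEGF-C receptor Flt4 was at 3.64 ± 0.942 and 3.87 ± 0.930 (log2 change 0.07), and it too was chosen after its values were seen. Over all alternative settings the median of this list stayed between -0.09 and 0.08, while array weights gave 4 lower and 2 higher calls. The list is not pure: Vcam1 (0.12) and Mrc1 (-0.08) are also in the macrophage list, Selp (0.37) is also a platelet gene, and Sele and Icam1 are made by other activated endothelium. These are examples, and other sources of the remaining genes, Stab1 and Ackr1 included, were not examined. Leukocyte and megakaryocyte markers had medians of 0.37 and 0.35, and their part in the sinusoidal median was not tested. The difference between the lists was not tested.

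**Figure D4:**
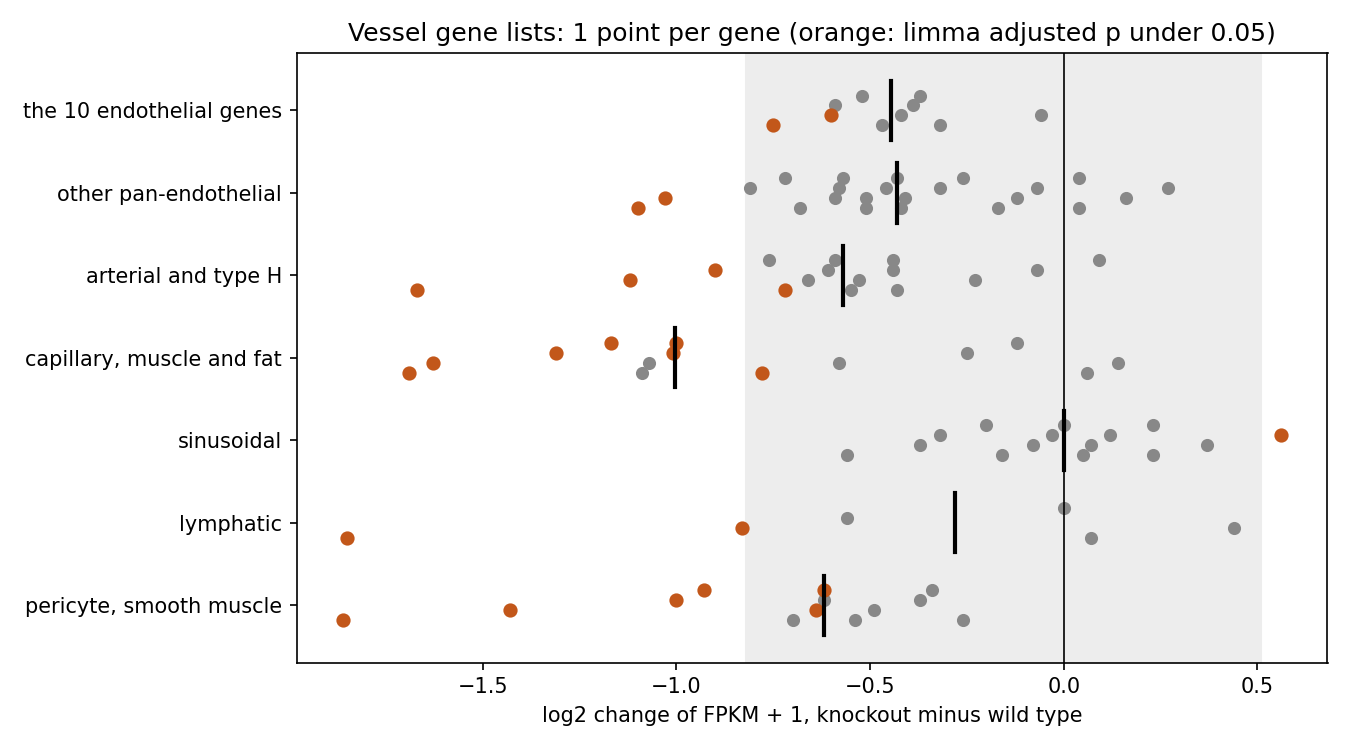
Log2 change of FPKM + 1, knockout minus wild type, for each tested gene of the vessel lists (1 point per gene, height within a row only to separate points), with calls in orange, list medians as black bars and the 5th to 95th percentile of all genes in grey. The sinusoidal median is at 0, and those of the 10 endothelial genes, the pan-endothelial, arterial and capillary lists lie between -0.43 and -1.

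Ligands and regulators of these receptors were examined next. Of 19 tested genes of the VEGF and angiopoietin systems 3 fell and 0 rose (median -0.44). Aplnr, the apelin receptor of sprouting vessels, went from 6.08, 5.32 and 5.77 FPKM in wild type to 1.53, 1.09 and 1.47 in knockout (log2 change -1.51, limma adjusted p = 0.00602). The secreted Angptl2 (6.47 ± 0.485 to 1.03 ± 0.539 FPKM, SD, n = 3, log2 change -1.91) and the VEGF co-receptor Nrp2 (-1.09) fell as well. The list had 2 to 3 calls when 1 library was left out. Among all genes, 3.82% were called lower and 1.34% higher. The main ligands, named here for their role, did not pass: Vegfa was at 17.8 ± 3.45 and 15.2 ± 1.13 FPKM and Angpt1, the activating ligand of Tek, at 6.63 ± 1.62 and 6.28 ± 0.967, each with overlapping groups.

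In the endoglin, BMP and Notch list 2 of 23 genes fell, Hey1 and Bmp4 (4.98 ± 0.521 to 2.44 ± 0.698 FPKM, SD, n = 3, log2 change -0.82), and 0 rose (median -0.32), beside 3.82% of all genes called lower and 1.34% higher. The count was 0 to 1 without single libraries. The Notch ligand Dll4 had a log2 change of -0.66 (limma adjusted p = 0.0541), with all knockout values below the wild-type ones. Acvrl1, the signalling receptor that works with endoglin, was at 9.86 ± 0.148 and 10.2 ± 0.875 FPKM (log2 change 0.04), beside the lower Eng. The circulating ligands Gdf2 and Bmp10 were listed at 0 in all 6 libraries.

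Cells around and beside the vessels differed too, and these values stand beside the endothelial ones. In the pericyte and smooth muscle list 6 of 13 genes fell (median -0.62), among them the proteoglycan Cspg4 (1.97 ± 0.421 to 0.477 ± 0.0405 FPKM, SD, n = 3, log2 change -1), the signalling regulator Rgs5 (-1.43) and smooth muscle actin Acta2 (-1.86). That count was 0 to 3 without single libraries. Every count of calls in this paragraph stands beside 3.82% of all genes called lower and 1.34% higher. Of 6 lymphatic genes Ccl21a (-1.85) and Pdpn (-0.83) fell (0 to 1 without single libraries), and the defining factor Prox1 was near 0, at 0 to 0.0752 FPKM. Which cells made Ccl21a and Pdpn was not tested. Summed markers of skeletal muscle were 4430 to 8030 FPKM in wild type and 2280 to 3430 in knockout, those of fat 414 to 639 and 46.9 to 90.3, of cartilage 287 to 419 and 7.70 to 46.3, and of bone matrix 2290 to 4100 and 913 to 1860. In these lists 4 of 10, 5 of 6, 8 of 9 and 5 of 12 tested genes fell and 0 rose. Without single libraries these counts were 0 to 2, 3 to 5, 4 to 9 and 0 to 3. The part of muscle, fat and bone vessels in the lower endothelial values was not tested.

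Markers of marrow cells, some of which share members of the 10, varied in direction. Their counts stand beside 3.82% of all genes called lower, 1.34% called higher and 11.7% lower at an unadjusted p under 0.05. Of 11 megakaryocyte genes 0 passed by limma, and 0 at an unadjusted p under 0.05 (median 0.35, summed 930 to 1610 FPKM in wild type and 1500 to 1790 in knockout). Of 10 stem and progenitor genes 0 passed by limma (median -0.09), with 1 lower at an unadjusted p under 0.05, Ly6a (log2 change -0.59), which arterial endothelium also makes. Of these 10, Ly6a, Gata2 (-0.22) and Cd34 (-0.33) lay lower in every knockout library, 30% against 13.7% of all genes, and endothelium also makes Gata2 and Cd34. Of 11 macrophage genes 2 were lower and 1 higher at an unadjusted p under 0.05, and Csf1r fell (36.4 ± 2.65 to 22.3 ± 1.30 FPKM, SD, n = 3, log2 change -0.68), while Cd163 missed the threshold at a log2 change of 0.91 (limma adjusted p = 0.0552). Without overlap, 2 of these 11 lay lower, Csf1r and Cd68, and 1 lay higher, Cd163. Over all genes, 13.7% lay lower and 14.7% higher in this way. Cd68 had a log2 change of -0.55 (limma adjusted p = 0.0923). The Csf1r call was lost when any 1 library was left out. The 8 erythroid genes had a median of 0.03, with 0 past the threshold by limma and 0 at an unadjusted p under 0.05.

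The genes whose pattern over the 6 libraries was most like that of Cdh5, among 11636 named genes, were Flrt2, Ky, Cpeb1, Ctdsp2 and Pgm5, with Pearson's r of 0.997 or more. Ky, a gene of skeletal muscle, went from 4.25 to 0.387 FPKM on average (log2 change -1.95), a larger step than that of Cdh5. For Stab2 they were Bahcc1, Slc26a2, Kpna6, Tshz1 and Mtmr2 (r of 0.987 to 0.998), with log2 changes of -0.07 to -0.03. Neither set holds an endothelial gene of the lists above. These r values describe 6 libraries that share depth and library effects.

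RefSeq promoters (GRCm38.p6, 250 bases before to 50 after the start) were at hand for 7 of the 10 genes. They are shown for Kdr and Tie1, which were lower in every knockout library, and for Stab2, which was not. Capitals mark GGAA, the core bound by ETS factors such as ERG, on either strand (TTCC on the other); overlapping matches can merge.
Kdr promoter, chr5:75978406-75978705, minus strand: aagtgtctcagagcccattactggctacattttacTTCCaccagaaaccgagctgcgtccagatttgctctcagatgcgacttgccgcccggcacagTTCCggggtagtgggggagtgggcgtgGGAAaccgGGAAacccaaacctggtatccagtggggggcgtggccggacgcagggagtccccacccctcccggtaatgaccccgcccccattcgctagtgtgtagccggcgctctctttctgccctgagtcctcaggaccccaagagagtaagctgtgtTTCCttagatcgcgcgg
Tie1 promoter, chr4:118489800-118490099, minus strand: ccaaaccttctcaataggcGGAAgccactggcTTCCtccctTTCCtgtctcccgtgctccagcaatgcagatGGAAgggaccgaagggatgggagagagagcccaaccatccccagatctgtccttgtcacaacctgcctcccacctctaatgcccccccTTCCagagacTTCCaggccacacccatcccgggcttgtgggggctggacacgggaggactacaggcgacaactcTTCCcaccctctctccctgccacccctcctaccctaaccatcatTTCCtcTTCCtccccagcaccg
Stab2 promoter, chr10:87007893-87008192, minus strand: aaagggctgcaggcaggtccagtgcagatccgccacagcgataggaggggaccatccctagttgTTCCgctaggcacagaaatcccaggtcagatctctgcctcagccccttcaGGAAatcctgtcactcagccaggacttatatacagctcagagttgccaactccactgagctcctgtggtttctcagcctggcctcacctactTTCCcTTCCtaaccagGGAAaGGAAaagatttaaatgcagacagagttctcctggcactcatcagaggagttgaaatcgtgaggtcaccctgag
The core occurred 5 times in Kdr, 9 times in Tie1 and 6 times in Stab2, and 96.0% of 32851 promoters of this length held it at least once. As many matches as in Tie1 were found in 1.59% of promoters, as many as in Stab2 in 15.7% and as many as in Kdr in 28.6%. The longer AGGAAG, searched on both strands and overlapping the core, was in 5 of the 7 member promoters and in 35.4% of all. It occurred 2 times in Tie1, 1 time in Stab2 and 0 times in Kdr. Of the members not shown, Emcn held the core 6 times, Eng and Flt1 4 times each and Tek 2 times.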

How the data were processed

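RNA was measured in bone of 3 wild-type and 3 miR-29cb2 knockout libraries, prepared with Trizol and an Illumina TruSeq kit, per the labels' protocols. The authors deposited FPKM values for 54532 genes. Bowtie 0.12.2 and build mm10 are named in the submitters' processing notes; no counting tool, annotation, strand setting or scaling is stated there. Identifiers were matched to GENCODE M21 (54495 matched, 37 did not), which gave symbols, coordinates and exon lengths. FPKM times exon length moved in fixed steps, from which whole reads were recovered for 96.9% of 29615 genes (tolerance 0.01 reads), all 10 endothelial genes included. Recovered reads carry counting error, and replicates of 1 group differed by more than that, as given below.

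Values were analysed as log2(FPKM + 1), which understates changes of low genes, for 13619 genes with a mean of at least 1 FPKM. Groups were compared with limma 3.58.1 in R 4.3.3 (variance trend, no block), two-sided, with Benjamini-Hochberg adjustment over all genes and a threshold of 0.05; every p printed comes from limma. The members, lists, tests and alternatives were chosen with earlier results of these data known. Named are the 10 genes and the 5 most like Cdh5 and Stab2 by Pearson's r. The 3 genes of smallest p are named for the vessel, ligand, pathway, pericyte, stem cell and macrophage lists. The remaining lists are given by sums, medians or counts, and further genes are marked, serve as examples or are named for their role. Replicates of 1 group differed by more than counting noise (chi-square over its degrees of freedom, 12.9 to 73.2). Figures were drawn with matplotlib 3.10.9.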

Additional observations from a re-analysis of the deposited data

How the results depend on the processing

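Of 19 alternatives, all kept a negative change for the 9 general endothelial genes, and the number lower in every knockout library was 6 to 9 (6 of 7 members tested at a mean of at least 5 FPKM, 7 of 10 with equal FPKM totals). Most alternatives could not alter this. Leaving out libraries, or changing the pseudocount, filter, variance trend, weights or block, cannot make separated groups overlap. The share of all genes lower in this way was 24.5% without both libraries that stood apart. The call of Cdh5 and Kdr did not hold as firmly. The count of members past the threshold, 2, became 0 with no filter, 0 with equal FPKM totals, 0 with the replicate block, 0 without both libraries that stood apart, 5 with the length trend removed and 8 with array weights, and was 0 to 1 when 1 library was left out. The median change of the 10 genes, -0.45, was -0.51 with a pseudocount of 0.1, -0.52 with voom on recovered reads, -0.38 with array weights, -0.38 without both libraries that stood apart and -0.50 to -0.40 when 1 library was left out. Stab2 minus the other genes stayed positive (0.25 to 0.56). The Stab2 change reached 0.08 without wild-type replicate 1, 0.05 without knockout replicate 1, -0.21 when wild-type replicate 2 was left out and 0 under array weights. The count over all genes, 703, was 143 with no filter, 365 at a mean of at least 5 FPKM, 3354 with array weights, 127 with the replicate block, 239 without both libraries, 1213 with the length trend removed and 62 to 418 without 1 library. For the listed genes other than the 10, the count of 48 was 14 with no filter, 104 with array weights, 18 with the replicate block, 18 without both libraries and 11 to 30 without 1 library. The cause of these shifts was not tested.

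The labels number the replicates but state no pairing across the genotypes. Deviations of same-numbered libraries correlated at -0.49, -0.27 and 0.16, and not every library correlated best with its own number. The highest value, 0.55, joined the libraries that stood apart, wild-type replicate 2 and knockout replicate 1. With such library effects, these correlations cannot show whether same-numbered libraries shared a batch. With 3 libraries a group, a change that misses the threshold is not shown to be absent. Emcn, Flt1 and Tek have the fewest reads.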
